A study of Arabidopsis thaliana with 6 samples.

Results

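The transcripts described here encode the core cell cycle machinery of Arabidopsis thaliana: the cyclin-dependent kinases of the CDKA and CDKB classes, the A-, B- and D-type cyclins, and the Kip-related protein (KRP) inhibitors. The 39 loci were taken by family name, as 1 CDKA, 4 CDKB, 8 CYCA, 9 CYCB, 10 CYCD and 7 KRP genes, out of 32140 loci in the count tables. Each locus is represented by the transcript isoform with the most reads over all libraries, and 6 of the 39 have more than 1 isoform. All 39 had an entry in the RefSeq annotation. Family names are used here, with a hyphen in place of the usual semicolon. RefSeq gives some genes other symbols, such as CDC2 for CDKA-1 and ICK1 for KRP1.

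RNA was measured in 6 SOLiD libraries from hand-dissected seed tissues after linear amplification. Wild-type (WT) embryos, from Landsberg erecta (Ler) mothers and Columbia (Col) fathers, gave 1 library at the globular stage and 2 at the 2-4 cell stage, called WT 7 and WT 11. Embryos of the 2-4 cell stage from Ler mothers labelled kyp-2, with Col fathers, gave 2 more, called kyp 11 and kyp 12. The last library is the Ler wild-type seed coat, the maternal tissue around the seed, taken while the embryo had 2-4 cells. All embryos were dissected with part of the suspensor. The paternal genotype is labelled wild type for both WT 2-4 cell libraries and for kyp 12, whose embryos then received a normal paternal KYP copy. Kyp 11 instead has a second maternal label that reads wild type, and both kyp titles describe the cross in the same words as WT. KYP itself, a histone H3 lysine 9 methyltransferase, was covered by 134 (WT 7), 224 (WT 11), 67 (kyp 11), 167 (kyp 12), 44 (globular) and 77 (seed coat) reads. Its reads do not check the kyp label, and its log2 fold change in kyp was −0.50 (SE 0.42, edgeR adjusted p = 1).

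Gene totals ran from 1448502 reads (kyp 11) to 4107227 reads (kyp 12), with 2497235 for WT 7, 3906313 for WT 11, 1773582 for globular embryos and 1935906 for seed coat. WT 11 and kyp 12 also share a name prefix (MC) and a count format with fractional reads, and WT 11 had 8.999% ribosomal RNA against 0.804 to 1.80% elsewhere. The tissue labels were read against marker lists. The embryo patterning genes LEC1 and DRN had reads in all 5 embryo libraries and none in the seed coat, where WOX2 had 2, WOX8 1 and WOX9 6 reads. The epidermal gene ATML1, also on the embryo list, had 730 seed coat reads, and the 6 genes of that list summed to 364 to 589 CPM (reads scaled to a common library total) in embryos and 382 CPM in the seed coat. The 8 seed coat markers were all detected in every embryo library, with a summed level of 2161 to 5495 CPM there against 4187 CPM in the seed coat. TT4 alone carried 73.6 to 86.9% of that sum, and without it the other 7 summed to 570 to 844 CPM in embryos and 1080 CPM in the seed coat. The 8 endosperm markers summed to 50.9 and 46.6 CPM in WT 7 and WT 11 and 115 and 53.8 in kyp 11 and kyp 12. They summed to 29.9 CPM in globular embryos and 104 CPM in the seed coat, with 5 to 7 of them detected per library. The 5 pollen and sperm markers summed to 1.201 and 7.42 CPM in WT 7 and WT 11, 47.6 and 33.1 in kyp 11 and kyp 12, 3.38 in globular embryos and 56.3 in the seed coat. The kyp libraries and the seed coat thus stood above the other 3 for this sum. VGD1 and LAT52-like made up most of it in each library. DUO1 had no read, MGH3 had 3 reads, all in the seed coat, and HAP2 had at most 3 per library. The part of RNA from other tissues in the levels below was not tested. No label ties the libraries of a group to separate plants, so the spread behind each p-value is one between samples and could be technical.

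Cyclin-dependent kinases drive the cell cycle only when bound to a cyclin, and the cyclin decides when and on what the kinase acts. D-type cyclins pair mainly with CDKA and release E2F transcription factors from the retinoblastoma protein at the entry to S phase, A-type cyclins act from S phase to mitosis, and B-type cyclins act at the G2 to M transition together with the plant-specific CDKB kinases. KRP proteins bind CDK and cyclin complexes and inhibit them. In the young seed the embryo, the endosperm and the seed coat each run through their own programme of divisions, and many of these families hold several paralogues with partly overlapping roles.

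All 39 genes had a read in at least 1 library, and 34 had a read in every library. The 5 that were missing from some were CDKB1-2 (seed coat), CYCA2-1 (globular), CYCD6-1 (WT 7), CYCD7-1 and KRP7. KRP7 had 1 read in WT 11 and 1 in the seed coat and nowhere else. CYCD7-1, in Arabidopsis a D-type cyclin of the stomatal lineage, had 10 reads in WT 7, 1 in kyp 12 and none in the other 4 libraries. A count of 0 allows a true value of up to 3 reads per library, and read intervals and floors cover counting error only, since amplified copies carry no molecular identifiers.

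**Figure D1:**
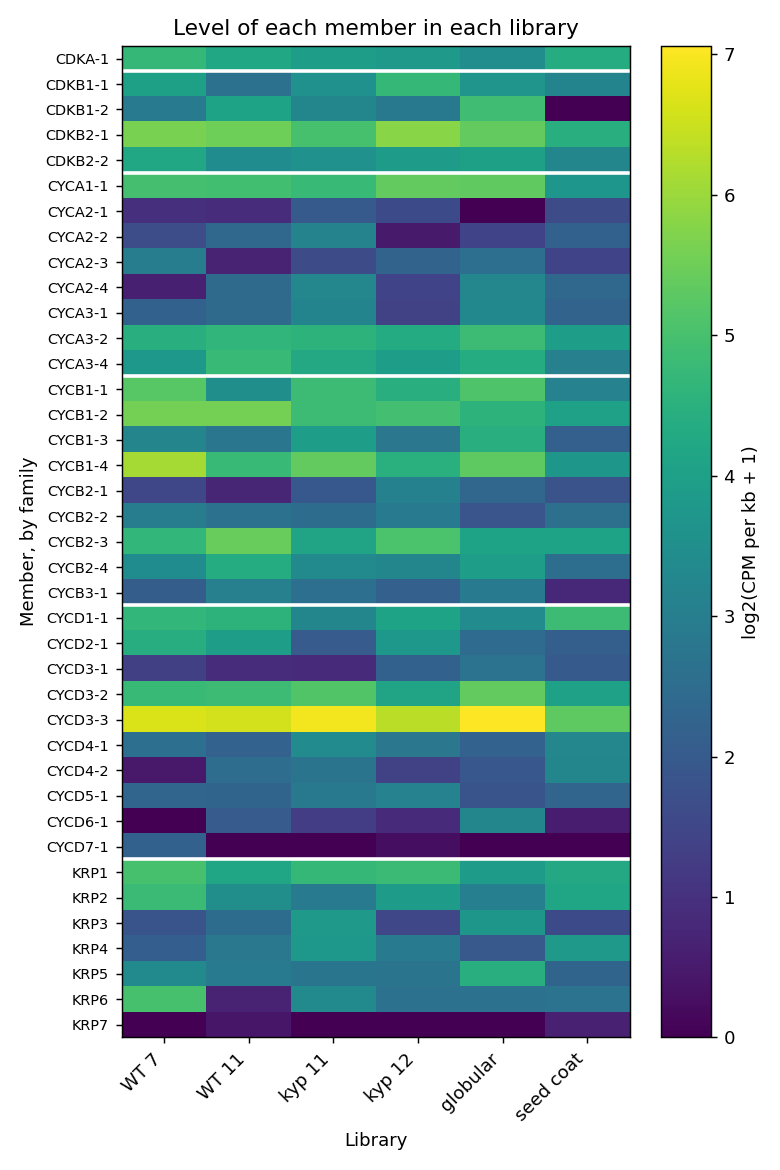
Heat map of the level of all 39 genes (rows, grouped by family with white lines) in the 6 libraries (columns), as log2(CPM per kb + 1). CYCD3-3 is the brightest row in every library (38.7 to 133 CPM per kb), and CDKB1-2 in the seed coat and CYCA2-1 in globular embryos are at 0.

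Levels of different genes are compared here as TMM-scaled CPM per kilobase of transcript (CPM per kb). The kinases come first. CDKA-1 (AT3G48750), the PSTAIRE kinase that works with D-, A- and B-type cyclins, was at 24.9 and 17.9 CPM per kb in WT 7 and WT 11 and at 14.4 and 13.2 in kyp 11 and kyp 12. It was at 10.03 CPM per kb in globular embryos (95% Poisson interval 6.42 to 14.9, 24 reads) and at 19.9 in the seed coat (15.3 to 25.4, 63 reads). Both kyp libraries thus lay below both WT libraries, the globular library lay below all 2-4 cell libraries, and the seed coat lay within the range of the WT pair.

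Among the CDKB kinases, which act around mitosis, CDKB2-1 (AT1G76540) had the highest level in all 6 libraries. It was at 49.0 and 44.1 CPM per kb in WT, 31.0 and 55.4 in kyp, 39.8 in globular embryos and 21.0 in the seed coat. The margin over the second kinase was 1.39-fold in globular embryos and 2.22- to 2.83-fold elsewhere, and CDKB2-1 made up 41.7 to 58.4% of the family level. With reads summed over isoforms, which may count shared reads more than once, CDKB1-2 led in globular embryos. Its paralogue CDKB2-2 (AT1G20930) was at 17.9 and 9.90 CPM per kb in WT and between 8.46 and 15.1 in the other 4 libraries. CDKB1-1 (AT3G54180) spread widely within both pairs of 2-4 cell libraries, from 5.34 to 15.2 CPM per kb in WT and from 10.95 to 24.9 in kyp.

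CDKB1-2 (AT2G38620), a kinase of the other CDKB subclass, was the member without a read in the seed coat but with reads in every embryo library. It had 18 and 68 reads in WT 7 and WT 11, 15 and 30 in kyp 11 and kyp 12, 57 in globular embryos and 0 in the seed coat. As CPM per kb these were 6.52, 16.2, 8.42, 6.18, 28.7 and 0, so the globular embryo was above every 2-4 cell library and the seed coat below every embryo library. Its reads covered 34.6 to 76.9% of the transcript in embryos, and the other isoform also had no seed coat read. With 3 reads set as its floor, the seed coat level was at least 9.94-fold lower than in WT 2-4 cell embryos, at least 6.40-fold lower than in kyp and at least 25.2-fold lower than in the globular embryo. Against WT 7 alone the bound was 5.71-fold and against WT 11 alone 14.2-fold. CDKB1-2 made up 7.36 and 21.4% of the family level in WT and 30.1% in globular embryos. An antisense neighbour overlaps 17.4% of the gene in the RefSeq annotation, measured on the gene span with introns, as for all overlaps here. No source says that strand was kept, so some CDKB1-2 reads may come from the neighbour, and their share was not tested. Of the 39 genes, 10 have such a neighbour, which overlaps 1.299 to 8.14% of CDKB1-1, CDKB2-1, CDKB2-2, CYCA2-3, CYCA3-4, CYCD1-1 and CYCD3-2.

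**Figure D2:**
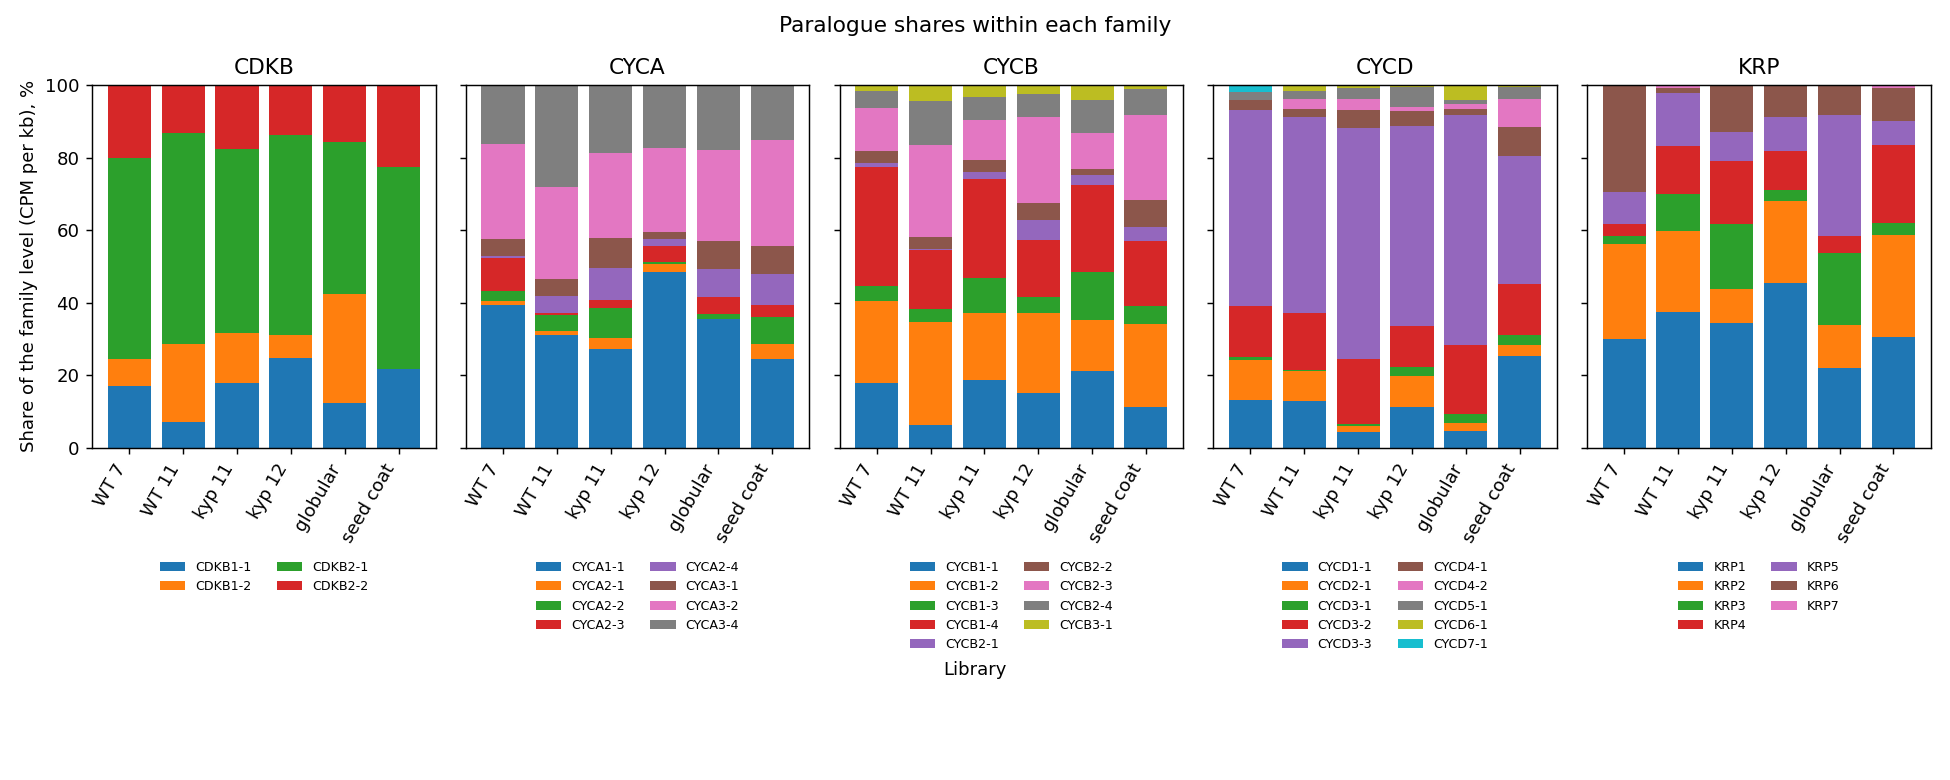
Stacked bars of the share (percent, y axis) of each family's summed CPM per kb taken by each paralogue, 1 bar per library and 1 panel per family. CDKB2-1 and CYCD3-3 take the largest share of their families in all 6 bars, while the leading CYCB changes between libraries.

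The A-type cyclins were led by CYCA1-1 (AT1G44110), a cyclin of mitosis, in all 5 embryo libraries. It was at 30.8 and 29.4 CPM per kb in WT, 26.5 and 40.6 in kyp and 39.5 in globular embryos, against 12.1 in the seed coat. The seed coat lay below every embryo library, and there CYCA3-2 (AT1G47210) had the highest level, 1.19-fold over CYCA1-1. CYCA3-2, of the A3 subclass that acts in S phase, was at 20.6 and 23.9 CPM per kb in WT, 22.6 and 19.4 in kyp, 27.9 in globular embryos and 14.4 in the seed coat. With the covered bases in place of the transcript length, CYCA1-1 led in the seed coat too. With isoforms summed, CYCA3-2 led in WT, kyp and globular embryos instead, and the mean WT share of CYCA1-1 went from 35.3 to 23.97%. The A2 cyclins, which in Arabidopsis work with CDKB1 kinases to hold cells in mitotic division, were low in comparison. CYCA2-1, CYCA2-2, CYCA2-3 and CYCA2-4 reached at most 8.72 CPM per kb in any library, and CYCA3-1 at most 8.87. Their libraries scattered, with an 11.8-fold difference between the WT libraries for CYCA2-3 and an 8.21-fold difference for CYCA2-4. CYCA3-4 was at 12.6 and 26.3 CPM per kb in WT, 18.3 and 14.5 in kyp, 19.9 in globular embryos and 7.50 in the seed coat.

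No single B-type cyclin led throughout. CYCB1-4 (AT2G26760) was highest in WT 7, kyp 11 and the globular library, CYCB1-2 (AT5G06150) in WT 11, and CYCB2-3 (AT1G20610) in kyp 12 and the seed coat. CYCB1-4 was at 67.7 and 26.8 CPM per kb in WT, 40.6 and 21.2 in kyp, 38.7 in globular embryos and 12.2 in the seed coat. The libraries without the MC prefix were therefore the high ones among the 2-4 cell embryos for this gene. CYCB1-1 (AT4G37490), widely used as a reporter of cells in G2 and M phase, was at 36.5 and 10.4 CPM per kb in WT, 27.5 and 20.6 in kyp, 33.9 in globular embryos and 7.78 in the seed coat. CYCB1-2 gave nearly the same level in both WT libraries, 46.6 and 47.2 CPM per kb, and was at 27.5 and 29.8 in kyp, 22.6 in globular embryos and 15.4 in the seed coat. CYCB2-3 went the other way between the pairs, at 24.6 and 42.1 CPM per kb in WT and 16.5 and 32.1 in kyp, with 16.1 in globular embryos and 16.1 in the seed coat. Stretches of 50 bases shared with other places in the genome make up 11.3% of CYCB1-2 and 17.0% of CYCB2-3, so some of their reads may have been lost or shared in the counting. In each of the 6 libraries the margin of the leading CYCB over the second was between 1.04- and 1.48-fold, and leadership moved with the library, not only with the group. CYCB1-3, CYCB2-1, CYCB2-2, CYCB2-4 and CYCB3-1 stayed at or below 20.9 CPM per kb.

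The D-type cyclins, like the CDKB kinases, had 1 leader throughout. CYCD3-3 (AT3G50070), a D3 cyclin of dividing tissues, was the most abundant of all 39 transcripts per kilobase in every library. It was at 99.5 and 95.02 CPM per kb in WT, 122 and 79.0 in kyp, 133 in globular embryos and 38.7 in the seed coat. Every embryo library thus lay above the seed coat for this gene. CYCD3-2 (AT5G67260) was second in all 5 embryo libraries, at 26.2 and 27.6 CPM per kb in WT, 34.5 and 16.4 in kyp and 40.2 in globular embryos, with 15.5 in the seed coat. The third D3 gene, CYCD3-1, stayed at or below 5.39 CPM per kb. In the seed coat the second place went to CYCD1-1 (AT1G70210), at 27.6 CPM per kb (95% Poisson interval 23.0 to 32.9), so that CYCD3-3 led by 1.40-fold there against 3.299- to 4.81-fold in embryos. CYCD1-1 was at 24.6 and 22.7 CPM per kb in WT, 8.49 and 16.1 in kyp and 9.67 in globular embryos. The level of CYCD2-1 (AT2G22490), a D-type cyclin that is sugar-responsive in Arabidopsis, was 20.17 and 14.4 CPM per kb in WT, 3.09 and 12.5 in kyp, 4.51 in globular embryos and 3.40 in the seed coat. CYCD4-1 (AT5G65420) was at 4.94 and 3.68 CPM per kb in WT and at 9.69 and 6.00 in kyp, with 3.67 in globular embryos and 8.64 in the seed coat. CYCD4-2 and CYCD5-1 were of similar size, at most 8.42 and 7.70 CPM per kb. CYCD6-1 (AT4G03270), a target of SHORTROOT and SCARECROW in formative divisions, had 0 and 10 reads in WT, 2 and 3 in kyp, 13 in globular embryos and 1 in the seed coat. An antisense neighbour covers 42.0% of that gene.

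KRP1 (AT2G23430) was the most abundant inhibitor in all libraries but the globular one. It was at 31.3 and 17.1 CPM per kb in WT, 25.0 and 27.0 in kyp, 13.7 in globular embryos and 18.3 in the seed coat. Its margin over the second inhibitor was only 1.01-fold in WT 7 and 1.09-fold in the seed coat. With isoforms summed, KRP6 led in WT and KRP4 in the seed coat. KRP5 (AT3G24810) took the first place in globular embryos, at 20.6 CPM per kb (95% Poisson interval 14.1 to 29.1, 32 reads). It was at 9.25 and 6.68 CPM per kb in WT, 5.73 and 5.53 in kyp and 3.88 in the seed coat, so the globular library was above all others. KRP2 (AT3G50630) was at 27.4 and 10.3 CPM per kb in WT, 6.73 and 13.6 in kyp, 7.26 in globular embryos and 16.9 in the seed coat. KRP4 (AT2G32710) was at 3.32 and 6.14 CPM per kb in WT, 12.6 and 6.35 in kyp, 2.94 in globular embryos and 12.98 in seed coat, and 27.4% of the gene overlaps an antisense neighbour. KRP6 (AT3G19150), which in Arabidopsis pollen is removed by the F-box protein FBL17, had 66 reads in WT 7 and 2 in WT 11. It had 13 and 20 reads in kyp, 8 in globular embryos and 11 in the seed coat. The CPM of the WT libraries differed 50.2-fold, the widest gap of any member with reads in both. KRP3 was at 2.54 and 4.59 CPM per kb in WT, 12.8 and 1.81 in kyp, 12.4 in globular embryos and 2.00 in the seed coat.

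**Figure D3:**
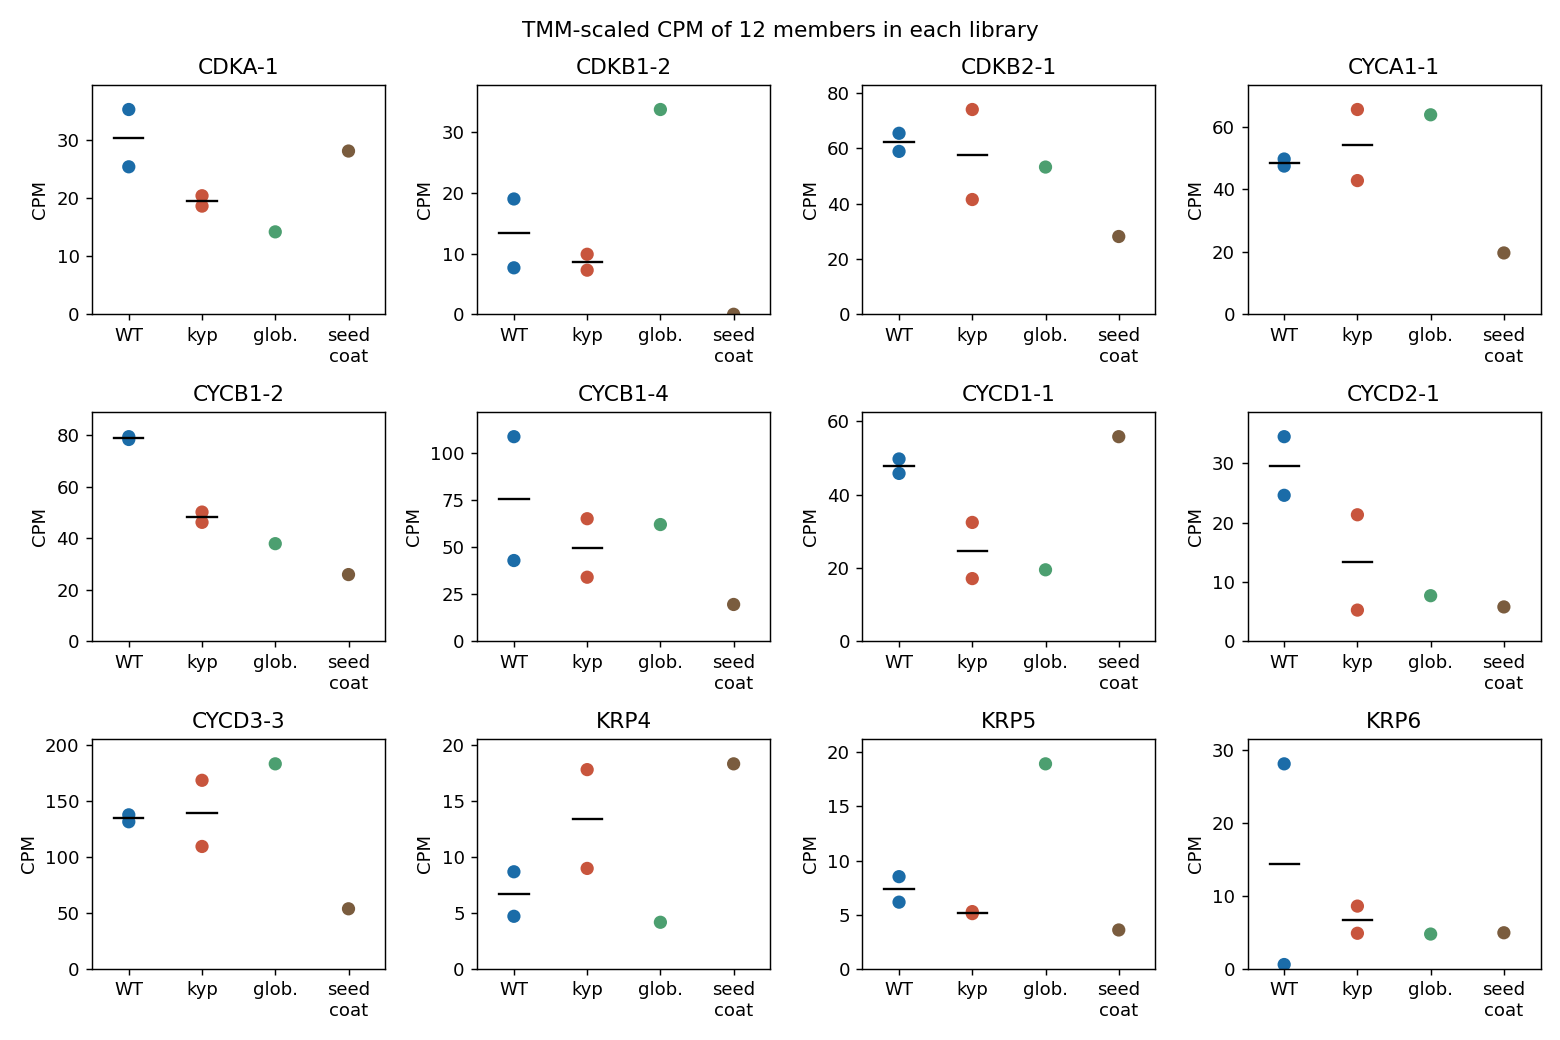
Levels of 12 of the genes as TMM-scaled CPM (y axis, from 0, separate scale per panel) in each library, with 1 point per library and a bar at the mean of the WT and kyp pairs (n = 2 each). The seed coat point is the lowest for CDKB1-2, CDKB2-1, CYCA1-1, CYCB1-2, CYCB1-4, CYCD3-3 and KRP5, and the highest for CYCD1-1 and KRP4.

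Setting kyp against WT embryos of the 2-4 cell stage addresses whether maternal KYP function affects these transcripts. None of the 33 members tested passed the threshold of an edgeR adjusted p under 0.05, beside 0.0313% of all 15996 genes. None reached an unadjusted p under 0.05 (5.1% of all genes), and none passed in DESeq2 (0.313%). The 6 others, CYCA2-1, CYCD3-1, CYCD6-1, CYCD7-1, KRP3 and KRP7, did not pass the filter on low counts. The median log2 fold change of the tested members was −0.09, with 14 positive and 19 negative, beside −0.00 and 50.1% negative over all genes. A p above the threshold does not show that levels were equal. The pollen markers VGD1 and LAT52-like were higher in both kyp libraries than in both WT libraries. On the same list, MGH3 and DUO1 had no read in these libraries and HAP2 had 1 to 3. The endosperm marker sum was also higher, at 115 and 53.8 CPM in kyp against 50.9 and 46.6 in WT. On that list, FIS2, FWA, MEA and AGL62 were higher in both kyp libraries than in both WT libraries. PHE1 was not, at 35.9 and 3.90 CPM in kyp against 26.8 and 7.94 in WT. Nor was MINI3, at 2.07 and 0 against 0.80 and 3.58. Among these libraries IKU2 had reads only in WT 7 and ZOU only in kyp 11. The part of such RNA in these values was not tested.

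The members whose kyp libraries both lay below both WT libraries were CDKA-1, CYCB1-2, CYCB2-4, CYCD1-1, CYCD2-1 and KRP5. These are 6 of 39, beside 16.1% of all genes tested. Those with both kyp libraries above both WT libraries were CYCA2-1, CYCB2-1, CYCD4-1, CYCD5-1 and KRP4, which are 5 of 39 and 4 of 33 tested, beside 17% of all genes. Both shares are near those of genes in general. CYCB1-2, with a WT mean of 46.9 ± 0.457 CPM per kb (SD, n = 2) and a kyp mean of 28.7 ± 1.68 (n = 2), differed by −0.70 on the log2 scale (SE 0.39, edgeR adjusted p = 1). CYCD1-1 had −0.92 (SE 0.51) and CYCD2-1 −1.09 (SE 0.69), both with an edgeR adjusted p of 1. Leaving out 1 library at a time moved the value of CYCD2-1 from −2.46 (without kyp 12) to −0.47 (without kyp 11). The largest positive values among members with at least 20 mean reads were 0.98 (SE 0.85) for KRP4 and 0.86 (SE 0.93) for CYCD4-1, and the thinly counted CYCB2-1, with 4 to 50 reads, had 2.07 (SE 1.19). The lowest was −1.10 (SE 1.23) for KRP6, which was 3.48 without WT 7 and is therefore set by 1 library.

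The libraries with and without the MC prefix were also compared separately, kyp 11 with WT 7 and kyp 12 with WT 11, each as log2(CPM + 1) differences without a test. CYCB1-2 differed by −0.75 and −0.65 and CDKA-1 by −0.76 and −0.43, so both genes were lower in kyp in both settings. CYCD2-1 differed by −2.50 and −0.20 and KRP4 by 1.73 and 0.04, so their difference was larger between the libraries without the prefix. CYCB2-1 differed by 0.50 and 2.63. Over all 39 members, 6 were higher and 8 lower in kyp in both settings, and 25 did not have the same sign in both. Among the 33 tested, these were 5 and 8, beside 25.4 and 24.9% of all genes.

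The globular library was compared with WT 2-4 cell embryos to follow embryo stage. With 1 globular library, the spread was borrowed from the 2-4 cell pairs. None of 36 members tested passed an edgeR adjusted p under 0.05, beside 1.16% of all 17706 genes. None reached an unadjusted p under 0.05 (11.3% of all genes), and none passed in DESeq2 (1.93%). CYCA2-1, CYCD7-1 and KRP7 were not tested. The median log2 fold change was 0.10 with 20 positive and 16 negative, beside −0.12 and 54.8% negative over all genes, and it was −0.14 without WT 11.

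The globular library lay above all 4 libraries of 2-4 cell embryos for CDKB1-2, CYCA3-1, CYCA3-2, CYCB1-3, CYCD3-1, CYCD3-2, CYCD3-3, CYCD6-1 and KRP5. These are 9 of 39, beside 23.7% of all genes tested. It lay below all 4 for CDKA-1, CYCA2-1, CYCB1-2, CYCB2-2, CYCB2-3, CYCD4-1, CYCD5-1, KRP1 and KRP4, which are 9 of 39 and 8 of 36 tested, beside 25.2%. CYCB1-3, at 8.34 and 5.84 CPM per kb in WT, 14.2 and 6.02 in kyp, 20.9 in globular embryos and 3.504 in the seed coat, had a log2 fold change of 1.56 against WT (SE 0.86, edgeR adjusted p = 0.537). KRP5 had 1.37 (SE 1.13, edgeR adjusted p = 0.721), CDKB1-2 had 1.33 (SE 0.90, edgeR adjusted p = 0.646) and CYCD3-3 had 0.45 (SE 0.47, edgeR adjusted p = 0.794). CYCD2-1 had −1.93 (SE 1.01, edgeR adjusted p = 0.506), CYCD1-1 −1.29 (SE 0.67, edgeR adjusted p = 0.504) and CYCB1-2 −1.06 (SE 0.57, edgeR adjusted p = 0.521). KRP6 had −1.57 (SE 1.61), but 2.98 without WT 7.

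The seed coat was compared with WT 2-4 cell embryos of the same seed stage. In the seed coat, 4 of the families had their lowest summed level of any library. The CDKB sum was 37.7 CPM per kb against 61.3 to 100.5 in embryos, the CYCA sum 49.3 against 78.3 to 111, the CYCB sum 68.2 against 136 to 205 and the CYCD sum 110 against 144 to 210. The KRP sum, 60.1 CPM per kb, and CDKA-1 lay within the range of the embryo libraries, 45.7 to 105 and 10.03 to 24.9. The same 4 families were lowest in the seed coat with scaling by library totals only, at 43.5, 57.1, 78.9 and 127 CPM per kb. The CYCD result rested on CYCD3-3, at 38.7 CPM per kb in the seed coat and 79.0 to 133 in embryos. Without this gene the CYCD sum was not lowest in the seed coat. In bulk tissue, fewer dividing cells and less of these RNAs per cell cannot be told apart.

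By gene, none of the 36 members tested passed an edgeR adjusted p under 0.05, beside 0.785% of all 17706 genes. CDKB1-2 came nearest, with an edgeR adjusted p of 0.0779, and passed in DESeq2 (adjusted p = 0.0496, beside 2.5% of all genes). Its edgeR adjusted p was under the threshold with no filter on low counts (0.0144), with isoforms summed (0.0394) and without WT 7 (0.0151), kyp 11 (0.0256) or kyp 12 (0.0200), and between 0.0629 and 0.115 under the other alternatives. Another 5 members, all lower in the seed coat, had an unadjusted p under 0.05, which makes 6 with CDKB1-2. Over all genes, 6.13% were lower at that p and 9.52% differed in either direction. The log2 fold change was −1.94 for CYCB1-4 (SE 0.70, edgeR adjusted p = 0.299) and −1.60 for CYCB1-2 (SE 0.58, edgeR adjusted p = 0.300). That of CYCB1-4 was −1.13 without WT 7 (edgeR adjusted p = 0.661) and −2.47 without WT 11. CYCD3-3 had −1.33 (SE 0.52, edgeR adjusted p = 0.354), CYCA1-1 −1.30 (SE 0.61, edgeR adjusted p = 0.515) and CYCD2-1 −2.33 (SE 1.03, edgeR adjusted p = 0.466). On the positive side, KRP4 had 1.44 (SE 0.99, edgeR adjusted p = 0.790) and CYCD1-1 0.22 (SE 0.61, edgeR adjusted p = 0.993).

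Of the 36 tested members, 28 had a negative log2 fold change in the seed coat, beside 50% of all genes, and their median was −0.81 beside 0 over all genes. The median stayed at −0.81 with CDKB1-2 set to its bound, was −0.50 beside 0.31 over all genes with scaling by library totals only, and was −0.33 beside 0.05 without WT 7. Over all 39 without the filter, 29 were negative, beside 46.2% of 23132 genes. By family, 8 of 9 B-type cyclins were negative (median −1.58), as were 4 of 4 CDKB kinases (−0.92), 5 of 7 A-type cyclins (−0.62), 5 of 6 inhibitors (−0.61) and 5 of 9 D-type cyclins (−0.00). CYCB2-1 was the B-type cyclin with a positive value, 0.99 (SE 1.57), from 9 seed coat reads.

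**Figure D4:**
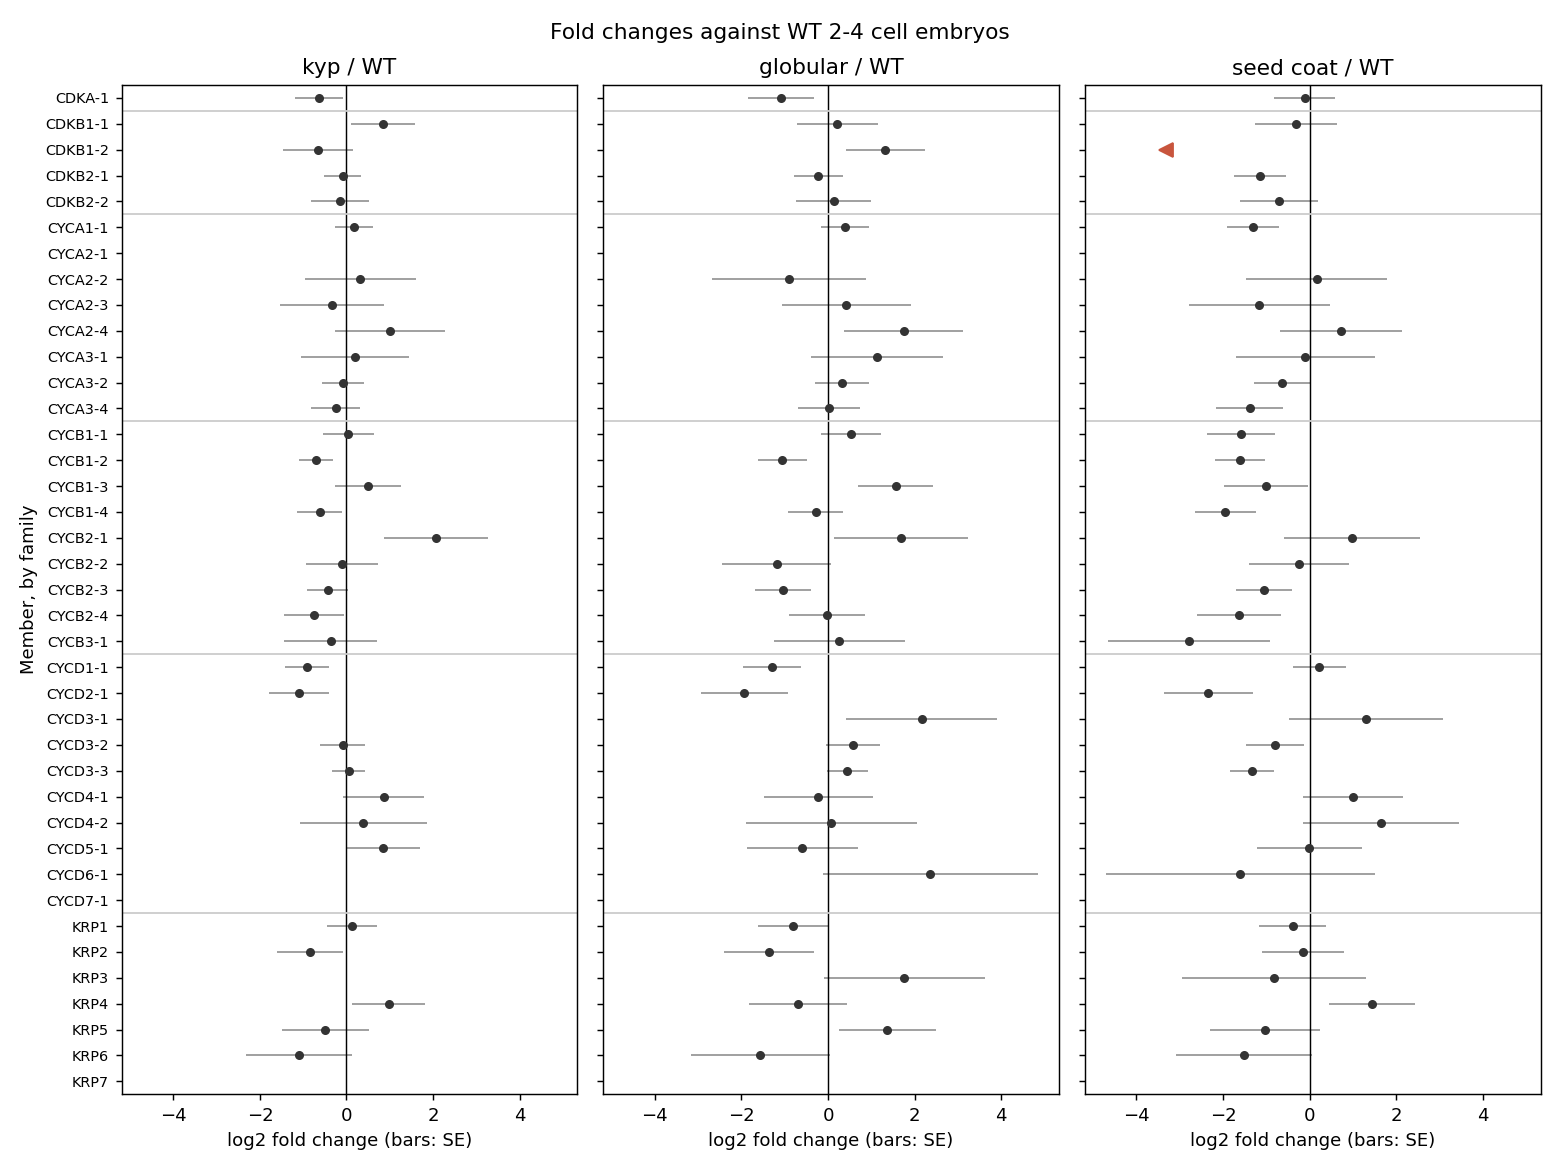
Log2 fold change of each gene (rows, by family) against WT 2-4 cell embryos in kyp embryos, the globular embryo and the seed coat (panels, shared x axis), from edgeR with bars of 1 SE. Genes without a point were not tested, and the arrowhead for CDKB1-2 marks its bound of −3.31 or lower against the WT mean (−2.51 against WT 7 alone); in the seed coat panel 8 of 9 CYCB genes lie left of 0.

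The seed coat lay below all 5 embryo libraries for 16 of the 39 genes, beside 16.4% of all genes tested. They were the B-type cyclins CYCB1-1, CYCB1-2, CYCB1-3, CYCB1-4, CYCB2-3, CYCB2-4 and CYCB3-1, the kinases CDKB1-2, CDKB2-1 and CDKB2-2, the A-type cyclins CYCA1-1, CYCA3-2 and CYCA3-4, the D3 cyclins CYCD3-2 and CYCD3-3, and KRP5. Scaled by library totals only, the count was 13, beside 11.3% of all genes. Without 1 embryo library at a time it was 16 to 18, beside 18.5 to 19.7% of all genes. For CYCB1-1, CYCB1-3, CYCB2-3, CDKB2-2, CYCD3-2 and KRP5 among the 16, the nearest embryo library lay within the seed coat's counting interval. CYCB2-3 was at 16.09 CPM per kb in the seed coat and 16.15 in globular embryos. The seed coat lay above all 5 embryo libraries for CYCD1-1, CYCD4-2, KRP4 and KRP7, which are 4 of 39 and 3 of 36 tested, beside 17% of all genes. For CYCD1-1 the nearest embryo library, WT 7, was at 24.6 CPM per kb against 27.6 in the seed coat, within the seed coat's counting interval. The same held for KRP4, at 12.6 CPM per kb in kyp 11 against 12.98, and for CYCD4-2, at 5.59 in kyp 11 against 8.42. It also held for KRP7, with 1 read in WT 11 and 1 in the seed coat.

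The 3 comparisons share the WT libraries, so values for the same gene are not independent between them. CYCD2-1 had log2 fold changes of −1.09 in kyp, −1.93 in globular embryos and −2.33 in the seed coat, all against 20.17 and 14.4 CPM per kb in WT. KRP4 had 0.98, −0.69 and 1.44 in the same order.

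A list of 38 further cell cycle genes (E2F and DP factors, CKS subunits, CDK-activating kinases, anaphase-promoting complex activators, SIAMESE inhibitors and others) was read beside the members. None of its 36, 37 and 37 tested genes passed an edgeR adjusted p under 0.05 in the kyp, globular and seed coat comparisons, and none passed in DESeq2. Unadjusted p-values under 0.05 numbered 1, 2 and 2, beside 5.1, 11.3 and 9.52% of all genes. They belonged to CDC20.1 in kyp, to DPA and WEE1 in globular embryos, and to CDC20.1 and SKP2B in the seed coat, of which DPA, WEE1 and SKP2B are named after their values were seen. DPA, a DP factor that pairs with E2F, was at 12.3 and 17.6 CPM in WT and 2.96 in globular embryos, or −2.32 on the log2 scale (SE 1.08, edgeR adjusted p = 0.433). WEE1, a kinase that inhibits CDKs, was at 7.23 and 8.10 CPM in WT and 30.8 in globular embryos, or 2.00 on the log2 scale (SE 0.93, edgeR adjusted p = 0.433). SKP2B, an F-box protein that targets KRP1 in Arabidopsis, was at 17.4 and 36.6 CPM in WT, 43.5 and 52.3 in kyp, 28.4 in globular embryos and 72.8 in the seed coat, the highest of all libraries. Its seed coat log2 fold change was 1.42 (SE 0.59, edgeR adjusted p = 0.421). Over the whole list of further genes, the median log2 fold change in the seed coat was −0.27, with 25 negative of 37. Over all genes the median was 0, with 50% negative, and for the cyclins, kinases and inhibitors it was −0.81. With library totals only, the median of the further list was 0.031, beside 0.31 over all genes. Without WT 11 it was −0.031, beside 0.061. CDC20.1, an activator of the anaphase-promoting complex that marks B-type cyclins for degradation, was at 32.3 and 46.1 CPM in WT and 14.5 and 16.2 in kyp. It was at 30.8 CPM in globular embryos and 11.6 in the seed coat, the lowest of all libraries. Its log2 fold change was −1.34 in kyp (SE 0.54, edgeR adjusted p = 0.959) and −1.75 in the seed coat (SE 0.76, edgeR adjusted p = 0.456). RBR1, the retinoblastoma protein that D-type cyclin kinases phosphorylate, was at 45.1 and 71.2 CPM in WT, 74.5 and 64.7 in kyp, 78.1 in globular embryos and 58.5 in the seed coat. Its seed coat level lay between the WT libraries. E2FA was at 17.9 and 32.7 CPM in WT, 48.8 and 13.3 in kyp, 26.0 in globular embryos and 12.5 in the seed coat. E2FB was at 11.5 and 6.43 CPM in WT, 18.5 and 3.39 in kyp, 7.70 in globular embryos and 17.4 in the seed coat. Both E2F genes spread more between the kyp libraries than between the group means. CKS1, a small subunit that docks CDKs to substrates, was at 16.2 and 14.8 CPM in WT, 25.1 and 12.1 in kyp, 33.2 in globular embryos and 10.7 in the seed coat. FBL17, the F-box protein that targets KRP inhibitors, was at 30.6 and 39.4 CPM in WT, 36.9 and 16.0 in kyp, 25.5 in globular embryos and 21.4 in the seed coat.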

How the data were processed

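Total RNA (PicoPure kit) was amplified linearly (WT-Ovation Pico), per the labels' protocols, and its cDNA was tailed, sheared and ligated to SOLiD adaptors. Per the file headers, the authors deposited read counts per transcript isoform with covered bases (the coverage of each transcript) and transcript length. The deposited values of WT 11 and kyp 12 are handled as estimated counts, since 12.7% and 10.8% of transcripts end in 0.5 read, and they were rounded upward. Aligner, counting tool, build and annotation are not given in the sources used here, so no coordinates or sequences are printed. RefSeq TAIR10.1 served for gene entries, overlapping genes and shared stretches.

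Of the transcripts, 37813 occur in every file and entered, and 5 do not and were left out. The test was the quasi-likelihood F test of edgeR 4.0.16 in R 4.3.3, after TMM scaling and filterByExpr (minimum count 10), with Benjamini-Hochberg adjustment over all genes tested at 0.05. For kyp, only the 4 libraries at the 2-4 cell stage entered. For globular embryos and seed coat all 6 libraries entered, in 4 groups, which leaves 2 residual degrees of freedom. The biological coefficient of variation was 0.475 and 0.505. The edgeR steps were tested on simulated data. Marker list sums use CPM of the gene totals, and all other levels TMM-scaled CPM. Poisson intervals are exact at 95%. Alternatives were DESeq2 1.42.0, other scalings and filters, summed isoforms, equal depth, the name prefix as a block and leaving out libraries. The gene families, lists and tests were chosen with earlier results of these data known. Values are given for the leading gene of each family in each group, for the 2 members with the largest positive and negative log2 fold change per comparison among those with at least 20 mean reads, and for 6 genes of the further list. Other members were named after their values were seen.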

Additional observations from a re-analysis of the deposited data

How the results depend on the processing

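No member passed the edgeR threshold in the kyp and globular comparisons under any alternative run. In the seed coat comparison 1 member, CDKB1-2, passed with DESeq2, with no filter on low counts and with isoforms summed (1 each), and leaving out a library gave 0 to 1. Counts over all genes moved more. In kyp, 5 became 50 with DESeq2, 106 with no filter, 18 with the name prefix as a block, 14 with a fit over all 6 libraries, and 8 to 126 when a library was left out. For globular embryos, 205 became 342, 562 and 344 with DESeq2, no filter and the prefix block, and 336 to 496 when a library was left out. For the seed coat, 139 became 442, 479, 296 and, with isoforms summed, 85, and 269 to 428 when a library was left out. The further cell cycle list gave 0 to 1 in the globular comparison when a library was left out (DEL1, without WT 11).

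The members' median log2 fold change in kyp turned from −0.09 to 0.041 with library totals only. The median over all genes rose as well, from −0.0011 to 0.135, so the members stayed below it. When a library was left out, the members' median ran from −0.36 to 0.077. It was positive without WT 7 (0.077, beside 0.054 over all genes) or WT 11 (0.020, beside 0.080). In the globular comparison it ran from −0.14 (without WT 11) to 0.33. KRP6 in kyp turned from −1.10 to 0.29 with the prefix block and ran from −2.10 to 3.48 (without WT 7) when a library was left out. In the globular comparison it ran from −2.55 to 2.98 (without WT 7). Its 66 reads in WT 7 set these signs, and the cause of the others was not tested. The leading paralogue was the same in 17 of 20 combinations of family and group with covered bases in place of length, and in 14 with isoforms summed. Covered bases put CYCA1-1 first in the seed coat, CYCB1-2 in WT and CYCB2-3 in kyp. Summed isoforms put CYCA3-2 first in WT, kyp and globular embryos, CDKB1-2 in globular embryos, KRP6 in WT and KRP4 in the seed coat. No paired analysis was possible because of the library numbers, of which WT and kyp share only 1. A fit paired by the name prefix was run in its place, joining WT 7 with kyp 11 and WT 11 with kyp 12, and gave 0 members in kyp. The WT and kyp pairs allow only large changes to be called, and the lone globular and seed coat libraries are assumed to vary like them.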
